A study of Mus musculus with 4 samples.

Results

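The genes described here encode interleukin-10 (IL-10) and the receptor chains through which a macrophage senses IL-10, interferons, IL-4 and IL-13. They are Il10, Il10ra, Il10rb, Ifngr1, Ifngr2, Ifnar1, Ifnar2, Il4ra, Il13ra1 and Il2rg, 10 of the 34745 gene IDs counted. The rule that chose them went by name and used no measured value, though earlier results of these data were known. RNA was sequenced from bone marrow-derived macrophages, which are primary cells grown out of the marrow of C57BL/6 mice. Of the 4 libraries, 2 came from cells transfected with Acly-E14 siRNA and 2 from cells transfected with control siRNA. All 4 received lipopolysaccharide (LPS), the bacterial cell wall component that activates macrophages, so the comparison is between activated cells. The labels state neither LPS dose and duration nor the age and sex of the mice, and nothing in them says whether libraries of a group came from separate mice or cultures. The p-values therefore measure the spread between these libraries, which may be technical.

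IL-10 is a cytokine that macrophages secrete after LPS and that restrains their own inflammatory output. Its receptor pairs a ligand-binding chain, Il10ra, with a chain that other cytokines of the family also use, Il10rb, and signals mainly through the transcription factor STAT3. The interferon-gamma receptor (Ifngr1 and Ifngr2) and the type I interferon receptor (Ifnar1 and Ifnar2) belong to the same class II family and signal through kinases of the JAK family, the type I receptor also through STAT2 with IRF9. Il4ra belongs to the class I family. It joins the common gamma chain Il2rg to form the IL-4 receptor of blood cells, or Il13ra1 to form a receptor for both IL-4 and IL-13, and both complexes act through STAT6.

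The libraries held between 21023197 and 21837806 counts. Acly, the targeted gene, had 118 and 127 CPM (counts over the library total, scaled by trimmed-mean factors) in Acly-E14 siRNA libraries, against 158 and 154 CPM in control siRNA libraries (log2 fold change -0.35, SE 0.060, edgeR adjusted p = 0.0086). Its adjusted p was 0.058 without control siRNA replicate 1. All 12 macrophage markers were detected, and 2 were higher and 7 lower (median log2 fold change -0.33). Their summed levels were 8822 and 9418 CPM in Acly-E14 siRNA libraries against 9783 and 9055 CPM in control siRNA libraries. Of these sums, Lyz2 alone gave 4399 and 4804 CPM in Acly-E14 siRNA libraries against 4932 and 4550 CPM in control siRNA libraries. Fibroblast and stroma markers were also present in every library, at 2850 and 3571 CPM summed over 13 genes in Acly-E14 siRNA libraries against 847 and 1296 CPM in control siRNA libraries, and 12 of the 13 were higher. Of the 6 endothelial markers, Cldn5 and Emcn were at 0 counts in every library, and Kdr and Cdh5 were tested and lower. Pecam1 (5 and 7 counts in Acly-E14 siRNA libraries, 6 and 4 in control siRNA libraries) and Tek (3 and 10, 2 and 0) were not tested. The 6 summed to 113 and 109 CPM in Acly-E14 siRNA libraries against 293 and 282 CPM in control siRNA libraries. Most of this was Kdr alone, at 103 and 97.6 CPM in Acly-E14 siRNA libraries against 277 and 269 CPM in control siRNA libraries. The 8 T cell markers summed to 20.3 and 23.2 CPM in Acly-E14 siRNA libraries against 18.7 and 21.6 CPM in control siRNA libraries, mostly Lck, with Cd3e and Cd8a at 0. The 6 mast cell and basophil markers summed to 0.503 and 0.457 CPM in Acly-E14 siRNA libraries against 1.09 and 1.12 CPM in control siRNA libraries, with Fcer1a and Ms4a2 at 0. The 1 gene tested, Kit, was lower, at 4 and 8 counts in Acly-E14 siRNA libraries against 20 and 22 in control siRNA libraries. Tpsb2 had 5 and 0 counts in Acly-E14 siRNA libraries against 0 and 0, and Cpa3 and Mcpt8 had 0 or 2 counts in each library. In bulk RNA, fewer cells of a type and less RNA per cell cannot be told apart.

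Of the receptor genes, Il10ra fell and Il4ra rose by more than 1 on the log2 scale, and Ifnar1 rose slightly. Il10 and the other 6 receptor genes were not called, with log2 fold changes between -0.11 and 0.07. All 10 genes passed the filter on low counts, with between 355 and 4968 counts per library, and were tested by edgeR at an adjusted p under 0.05 over 13108 genes. The 3 called genes make up 30% of the 10, near the 33.2% called among all genes tested, so the count itself does not set the family apart. Taken by direction, 2 of 10 were higher, beside 17.3% of all genes, and 1 of 10 was lower, beside 15.9%. Higher genes made up 52.0% of all calls with this scaling and 65.8% with library totals. At an unadjusted p under 0.05, 3 of 10 passed, beside 45.2% of all genes. Beyond 1 on the log2 scale, 1 of 10 was called higher, beside 7.49% of all genes, and 1 of 10 lower, beside 1.67% (9.16% in either direction). The median absolute log2 change was 0.06 over the 10 genes and 0.29 over all genes tested. Genes with far fewer counts than these 10 were among all genes tested, and the medians were not matched for counts.

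**Figure D1:**
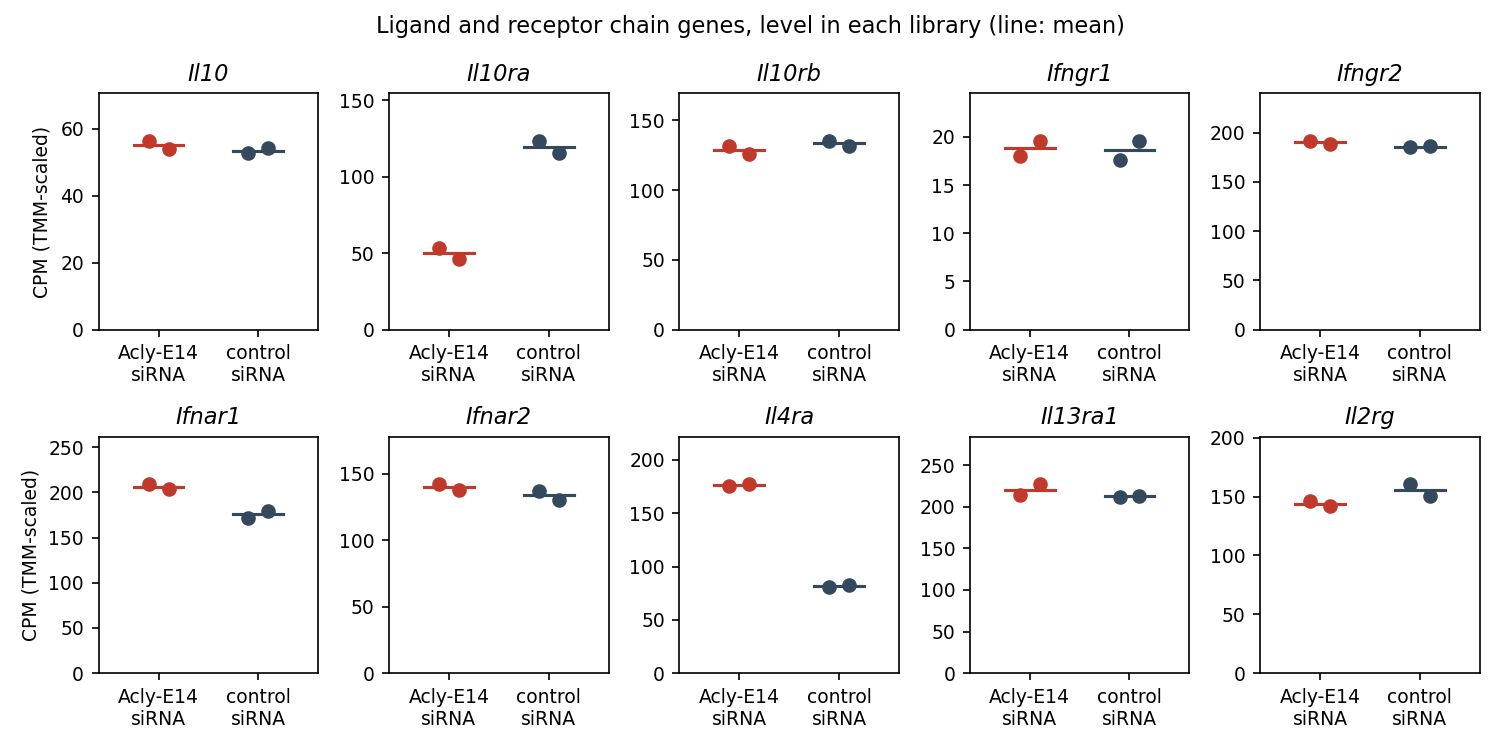
Level of each gene in each library, in CPM scaled by trimmed-mean factors on an axis that starts at 0. Points are libraries and lines are group means (n = 2). Il10ra was at 53.4 and 46.5 CPM in Acly-E14 siRNA libraries, far below control siRNA libraries, and Il4ra at 176 and 177 CPM, far above them.

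The ligand is described first. Il10 (ENSMUSG00000016529) lies on the plus strand of chromosome 1 from 131019845 to 131024974 in mm10. It had 56.4 and 54.0 CPM in Acly-E14 siRNA libraries, against 52.8 and 54.2 CPM in control siRNA libraries. The groups overlapped. The log2 fold change was 0.05 (95% interval -0.11 to 0.21, edgeR adjusted p = 0.62), an interval that runs as fold change from 0.924 to 1.15.

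Il10ra (ENSMUSG00000032089; chromosome 9, 45253837 to 45269149, minus strand) encodes the chain that binds IL-10 and carries the docking sites for STAT3. It had 1168 and 1018 counts in Acly-E14 siRNA libraries, against 2485 and 2472 counts in control siRNA libraries. Scaled for library size, these were 53.4 and 46.5 CPM in Acly-E14 siRNA libraries and 123 and 116 CPM in control siRNA libraries. Both Acly-E14 siRNA libraries were low and the groups were well apart. The SD was 4.91 CPM in Acly-E14 siRNA libraries and 5.53 CPM in control siRNA libraries (n = 2 each), and the level fell to 0.418 of the control level (log2 fold change -1.26, SE 0.085, 95% interval -1.47 to -1.05, edgeR adjusted p = 0.00089). The call held without any 1 of the 4 libraries, with adjusted p between 0.0032 and 0.013. Of the 12 macrophage markers 7 were lower and 2 higher (median log2 fold change -0.33), while their summed level overlapped between the groups. Their part in the fall of Il10ra was not tested.

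The partner chain did not follow. Il10rb (ENSMUSG00000022969; chromosome 16, 91406164 to 91425834, plus strand), which recruits the kinase TYK2, had 132 and 126 CPM in Acly-E14 siRNA libraries, against 135 and 132 CPM in control siRNA libraries. The libraries lay close together and its log2 fold change was -0.05 (95% interval -0.19 to 0.09, edgeR adjusted p = 0.51). With library totals in place of trimmed-mean scaling the sign turned, to 0.04.

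Since both chains are counted in the same library, their ratio does not depend on scaling. Per length, Il10ra stood at 0.259 and 0.236 of Il10rb in Acly-E14 siRNA libraries, against 0.582 and 0.560 in control siRNA libraries. These ratios depend on the gene lengths used. With merged exon lengths of GENCODE M21, chosen after seeing the data, they were 0.442 and 0.403 in Acly-E14 siRNA libraries, against 0.992 and 0.955 in control siRNA libraries. The difference between the groups does not depend on the lengths. The log2 ratio differed between the groups by -1.21, while replicates differed by 0.13 in Acly-E14 siRNA libraries and 0.06 in control siRNA libraries. An exact two-sided permutation test over libraries gave p = 0.333 (0.4 adjusted over the 6 ratios computed), the smallest value that 2 libraries against 2 allow.

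**Figure D2:**
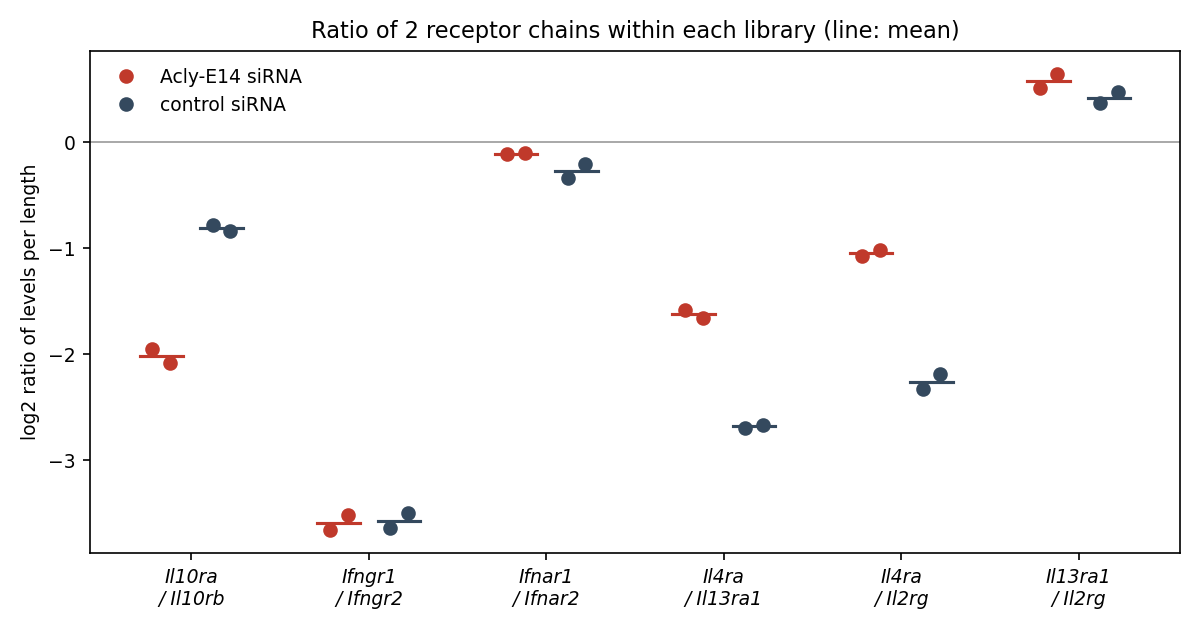
Log2 ratio of the levels per length of paired receptor chains within each library, with lines at the group means (n = 2). Il10ra over Il10rb was lower in Acly-E14 siRNA libraries by 1.21, and Il4ra over Il13ra1 and over Il2rg was higher by 1.06 and 1.22, while Ifngr1 over Ifngr2 overlapped between the groups.

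Il4ra (ENSMUSG00000030748; chromosome 7, 125552120 to 125579474, plus strand) encodes the chain shared by both IL-4 receptor complexes, which binds IL-4 and docks STAT6. It rose in Acly-E14 siRNA libraries and had the smallest p of the 10 genes, at position 23 of the 13108 genes tested. The stretch around its transcription start, from RefSeq on GRCm38.p6 (the mm10 assembly), is shown because it is the regulatory sequence nearest to the gene with that p. It covers 250 bases before the start and 50 from it onward, at chr7:125552021-125552320 on the plus strand.
Il4ra: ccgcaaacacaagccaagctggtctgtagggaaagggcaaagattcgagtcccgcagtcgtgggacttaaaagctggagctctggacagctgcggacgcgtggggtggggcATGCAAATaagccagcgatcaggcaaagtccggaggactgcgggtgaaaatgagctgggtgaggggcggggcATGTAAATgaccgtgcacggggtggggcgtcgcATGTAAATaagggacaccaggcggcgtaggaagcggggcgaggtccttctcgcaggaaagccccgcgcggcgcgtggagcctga
Capitals mark matches to ATGNAAAT on either strand, a pattern that contains the octamer bound by POU-domain factors and that was chosen after the sequence was seen. It occurs 3 times here, beginning 139, 67 and 34 bases before the RefSeq start site (125552271). That site lies 151 bases inside the gene as GENCODE places it, so all 3 matches lie downstream of the GENCODE gene start. The match at 139 bases reads ATGCAAAT, the octamer itself, and those at 67 and 34 bases read ATGTAAAT. Of 32851 windows of this length, 5.67% held ATGNAAAT at least once and 15 windows (0.046%) held it 3 times or more. Since the pattern was chosen from this window, these shares do not test how unusual the window is. No match to the STAT pattern TTCNNNGAA, or to the STAT6-type pattern with 1 more base in its spacer, was found in the window on either strand, while 8.30% and 6.95% of all windows held them. These matches describe letters and not binding.

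In counts, Il4ra had 3836 and 3881 in Acly-E14 siRNA libraries, against 1624 and 1774 in control siRNA libraries. Its level was 176 and 177 CPM in Acly-E14 siRNA libraries and 80.7 and 83.0 CPM in control siRNA libraries. Replicates nearly coincided and the groups were far apart. The mean was 176 ± 1.23 CPM in Acly-E14 siRNA libraries and 81.8 ± 1.63 CPM in control siRNA libraries (SD, n = 2 each), a 2.16-fold rise (log2 fold change 1.11, SE 0.054, 95% interval 0.98 to 1.24, edgeR adjusted p = 0.00058). Without any 1 of the 4 libraries the adjusted p was between 0.0032 and 0.011. Fibroblasts also express Il4ra, and the summed level of the stromal list above was higher in the same libraries, with 12 of its 13 genes called higher. Its part in the rise of Il4ra was not tested. An antisense gene, Gm44876, shares 571 exon bases with Il4ra and had 0 counts. Counts per gene do not separate the membrane form from the soluble form that mice make by alternative splicing.

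Neither partner of Il4ra was called. Il13ra1 (ENSMUSG00000017057; chromosome X, 36112110 to 36171259, plus strand) completes the receptor for IL-4 and IL-13. It had 213 and 227 CPM in Acly-E14 siRNA libraries, against 212 and 213 CPM in control siRNA libraries (log2 fold change 0.05, 95% interval -0.09 to 0.19, edgeR adjusted p = 0.51). The lower Acly-E14 siRNA library lay beside the control siRNA libraries. Il2rg (ENSMUSG00000031304; chromosome X, 101264378 to 101268255, minus strand), which recruits the kinase JAK3, had 146 and 142 CPM in Acly-E14 siRNA libraries, against 161 and 150 CPM in control siRNA libraries. The Acly-E14 siRNA libraries were lower without overlap, but the log2 fold change of -0.11 was not called (95% interval -0.26 to 0.04, edgeR adjusted p = 0.21). Il2rg shares 728 exon bases with Gm20489, which had 1 count in all.

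Measured per length, Il4ra was at 0.333 and 0.317 of Il13ra1 in Acly-E14 siRNA libraries, against 0.154 and 0.158 in control siRNA libraries. Relative to Il2rg it was at 0.476 and 0.496 in Acly-E14 siRNA libraries, against 0.199 and 0.219 in control siRNA libraries. Both ratios were thus more than 2 times as high in Acly-E14 siRNA libraries (2.08-fold and 2.32-fold), and each exact two-sided permutation p was 0.333, the smallest possible. The ratio of the partners to each other, Il13ra1 over Il2rg, was 1.43 and 1.57 in Acly-E14 siRNA libraries against 1.29 and 1.39 in control siRNA libraries, a difference of 0.16 on the log2 scale beside gaps of 0.13 and 0.11 between replicates.

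**Figure D3:**
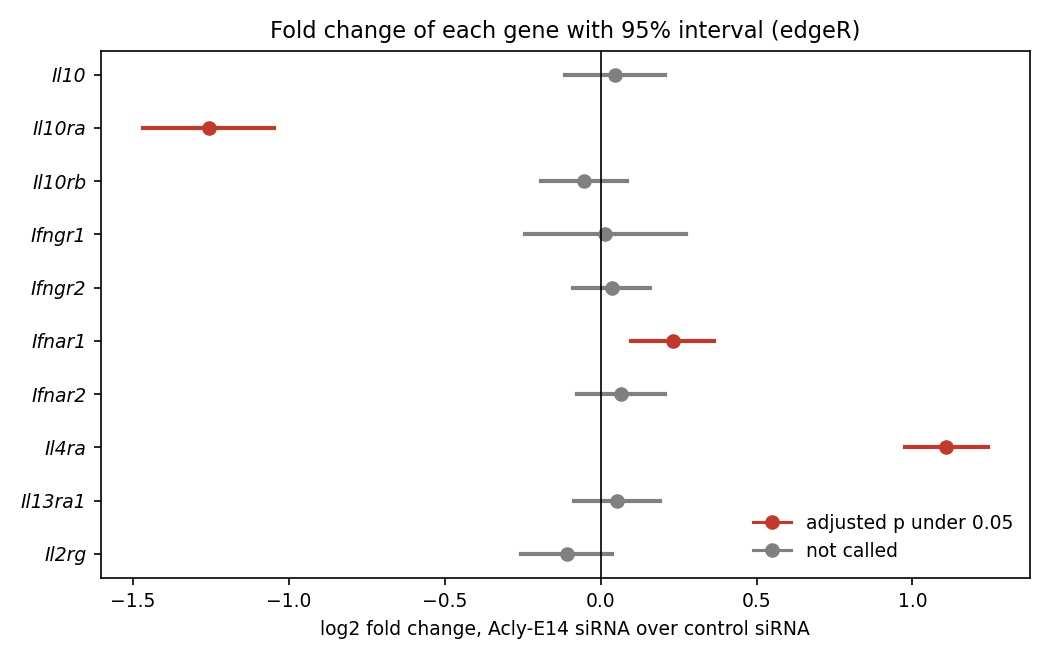
Log2 fold change of each gene, Acly-E14 siRNA over control siRNA, with its 95% interval from the edgeR fit (n = 2 per group). Il10ra (-1.26) and Il4ra (1.11) stand apart on opposite sides, Ifnar1 (0.23) lies just above 0, and the intervals of the other 7 genes include 0.

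The type I interferon receptor showed a small change in 1 chain. Ifnar1 (ENSMUSG00000022967; chromosome 16, 91485238 to 91507441, plus strand), the chain that recruits TYK2, had 209 and 204 CPM in Acly-E14 siRNA libraries, against 172 and 180 CPM in control siRNA libraries. Both Acly-E14 siRNA libraries were higher, and the mean rose 1.17-fold (log2 fold change 0.23, SE 0.054, 95% interval 0.10 to 0.36, edgeR adjusted p = 0.024). With any library left out, Ifnar1 no longer passed: the adjusted p was 0.097 and 0.076 without Acly-E14 siRNA replicate 1 or 2, and 0.141 and 0.067 without control siRNA replicate 1 or 2.

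The window around the start of Ifnar1, at chr16:91484965-91485264 on the plus strand of GRCm38.p6 (RefSeq), is shown as that of the other gene that rose, with GC boxes (GGGCGG on either strand, the core bound by SP1) in capitals. Its RefSeq start site (91485215) lies 23 bases before the GENCODE gene start.
Ifnar1: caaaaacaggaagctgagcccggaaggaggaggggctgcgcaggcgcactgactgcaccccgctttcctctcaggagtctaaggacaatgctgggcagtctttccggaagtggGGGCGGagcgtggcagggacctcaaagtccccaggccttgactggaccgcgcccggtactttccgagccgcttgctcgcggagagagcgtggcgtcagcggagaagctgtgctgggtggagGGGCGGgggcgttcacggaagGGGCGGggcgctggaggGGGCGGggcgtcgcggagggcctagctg
It held 4 such matches, as did Ifngr2, a number reached by 5.49% of all windows, while 35.7% held at least 1. The Il4ra window held 1. The TTCNNNGAA pattern occurred 1 time in the Ifnar1 window and 1 time in the Ifnar2 window, and ATGNAAAT in neither. No 2 matches of different patterns overlapped. Windows were matched for 7 of the 10 genes, all but Il10, Il10ra and Il10rb.

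Ifnar2 (ENSMUSG00000022971; chromosome 16, 91372783 to 91405589, plus strand) is the high-affinity chain for type I interferon. It had 142 and 138 CPM in Acly-E14 siRNA libraries, against 137 and 130 CPM in control siRNA libraries. The groups lay side by side, nearly touching, and the log2 fold change was 0.07 (95% interval -0.07 to 0.21, edgeR adjusted p = 0.42). Ifnar1 over Ifnar2 per length was 0.927 and 0.930 in Acly-E14 siRNA libraries, against 0.790 and 0.867 in control siRNA libraries, a log2 difference of 0.17 beside a gap of 0.13 between the control siRNA replicates (exact permutation p = 0.333, the smallest possible). Mouse Ifnar2 is also spliced into a soluble form, which the counts do not separate.

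Both chains for interferon-gamma stayed within a narrow range. Ifngr1 (ENSMUSG00000020009; chromosome 10, 19591949 to 19610229, plus strand), which binds the ligand, had 18.0 and 19.6 CPM in Acly-E14 siRNA libraries, against 17.6 and 19.6 CPM in control siRNA libraries. The groups overlapped (log2 fold change 0.01, 95% interval -0.24 to 0.27, edgeR adjusted p = 0.93). Its interval was the widest of the 7 uncalled genes, and Ifngr1 had the fewest counts of the 10 genes, at 394 and 429 in Acly-E14 siRNA libraries and 355 and 419 in control siRNA libraries. Ifngr2 (ENSMUSG00000022965; chromosome 16, 91547072 to 91565623, plus strand), which brings in JAK2, had 192 and 189 CPM in Acly-E14 siRNA libraries, against 185 and 187 CPM in control siRNA libraries (log2 fold change 0.03, 95% interval -0.09 to 0.16, edgeR adjusted p = 0.63). Per length, Ifngr1 was at 0.079 and 0.087 of Ifngr2 in Acly-E14 siRNA libraries and at 0.080 and 0.088 in control siRNA libraries (exact permutation p = 0.667).

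Over the 10 genes, 8 had groups that did not overlap, beside 70.6% of all genes tested. Of these 8, 5 were not called by edgeR.

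The order of genes on chromosome 16 gives a second view. Ifnar2, Il10rb, Ifnar1 and Ifngr2 lie in that order within 192841 bases, all on the plus strand. The end of Ifnar2 is 574 bases from the start of Il10rb, and the next gaps are 59403 and 39630 bases. Of the 4 neighbours, Ifnar1 was called, beside 33.2% called among all genes tested, so the count does not set the row apart. A gene annotated across the first pair, Gm21970, shares 315 exon bases with Ifnar2 and 569 with Il10rb. It had 11.7 and 14.1 CPM in Acly-E14 siRNA libraries, against 10.6 and 10.4 CPM in control siRNA libraries, and was not called (log2 fold change 0.29, edgeR adjusted p = 0.15). Reads from shared exons make the counts of Ifnar2 and Il10rb less certain.

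**Figure D4:**
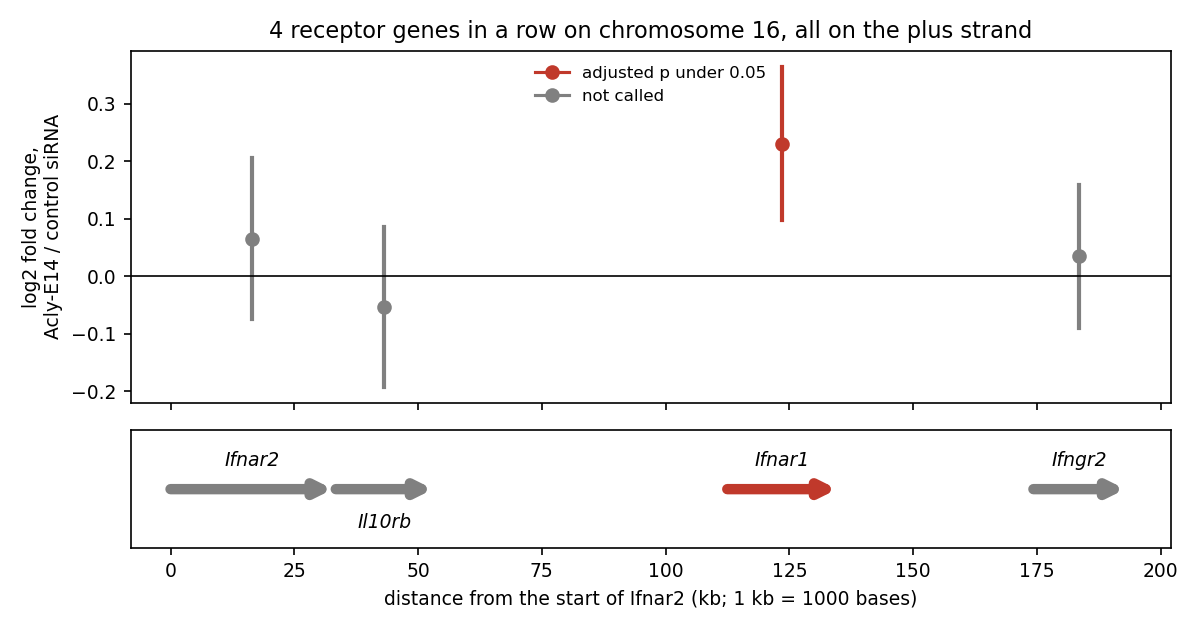
The 4 neighbouring receptor genes on chromosome 16, drawn to scale in the lower panel as distance from the start of Ifnar2 in kilobases, with arrows along the direction of transcription. The upper panel gives each gene's log2 fold change, Acly-E14 siRNA over control siRNA, with its 95% interval. Ifnar1 (0.23) is the called gene of the 4, beside 33.2% called among all genes tested.

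The genes that relay these receptors' signals moved in both directions. Of 11 tested kinases and transcription factors of the JAK-STAT relay, 3 passed as higher and 4 as lower while 4 did not pass. Their median log2 fold change was -0.09 beside 0.00 over all genes tested. Among all genes tested 17.3% were higher and 15.9% lower, shares to be read beside the counts of this list and of each list below. Tyk2, the kinase bound by Il10rb and Ifnar1, had 145 ± 7.94 CPM in Acly-E14 siRNA libraries and 213 ± 2.09 CPM in control siRNA libraries (SD, n = 2 each; log2 fold change -0.56, edgeR adjusted p = 0.0024). Irf9, a transcription factor that acts with STAT2 below the type I receptor, had a log2 fold change of -0.54 (edgeR adjusted p = 0.0026). Jak3, the kinase of Il2rg, was at low level and rose by 0.57 (edgeR adjusted p = 0.010). Leaving out control siRNA replicate 1 raised that p to 0.059. The count of lower genes was 2 without any 1 of the 4 libraries, and that of higher genes was 1 without Acly-E14 siRNA replicate 1, control siRNA replicate 1 or control siRNA replicate 2.

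Of 15 genes that restrain the receptors, 3 were higher and 3 lower (median log2 fold change -0.07), beside 17.3% and 15.9% of all genes tested. Cish, a STAT-induced inhibitor of cytokine receptors, had 36.4 CPM in Acly-E14 siRNA libraries and 18.3 CPM in control siRNA libraries on average (log2 fold change 0.99, edgeR adjusted p = 0.0019). Pias4, a SUMO ligase of the PIAS family, fell by 0.59 on the log2 scale (edgeR adjusted p = 0.0040). Usp18, which binds Ifnar2 and blocks type I interferon signalling, fell by 0.37 (edgeR adjusted p = 0.0047).

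The ligands of these receptors, and of other receptors of their families, were mostly not detected besides Il10. Of 19 ligand genes, 11 were at 0 counts in every library, among them Ifng, Il4 and Il13, and 4 were tested. Il15, whose receptor uses Il2rg, had 188 CPM in Acly-E14 siRNA libraries and 242 CPM in control siRNA libraries on average (log2 fold change -0.36, edgeR adjusted p = 0.010), a call lost without Acly-E14 siRNA replicate 2 (0.053) or control siRNA replicate 1 (0.071). Ifnb1, the interferon-beta gene, was at 3.02 CPM in Acly-E14 siRNA libraries and 5.02 CPM in control siRNA libraries (edgeR adjusted p = 0.043), and no fit on 3 libraries called it (0.071 to 0.213). Il19, a neighbour of Il10 in the IL-10 family, had 2.65 CPM in Acly-E14 siRNA libraries and 1.61 CPM in control siRNA libraries and was not called (edgeR adjusted p = 0.11). Of 13 other chains of the class II and common gamma families, 7 were tested, of which 2 were higher and 1 lower. Il7r, which pairs with Il2rg, had 361 CPM in Acly-E14 siRNA libraries and 425 CPM in control siRNA libraries (log2 fold change -0.23, edgeR adjusted p = 0.020), and Crlf2, which pairs with Il7r, had 110 CPM in Acly-E14 siRNA libraries and 93.1 CPM in control siRNA libraries (log2 fold change 0.25, edgeR adjusted p = 0.024). Neither call held without any 1 of the 4 libraries (adjusted p 0.064 to 0.119). Il2ra, the high-affinity IL-2 receptor chain, averaged 0.846 CPM in Acly-E14 siRNA libraries and 0.190 CPM in control siRNA libraries (log2 fold change 2.10, edgeR adjusted p = 0.028), a call lost without either Acly-E14 siRNA replicate (0.135 and 0.112) or control siRNA replicate 1 (0.117).

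Upstream of Il10, 13 genes that drive its transcription after LPS were tested, and 0 were higher and 4 lower by edgeR (median log2 fold change -0.19), beside 0 higher and 5 lower at an unadjusted p under 0.05. DESeq2 and limma gave 0 higher, and edgeR with library totals gave 1. Mapkapk2, a kinase of the p38 pathway, had a log2 fold change of -0.34 (edgeR adjusted p = 0.012) and Maf, a transcription factor for Il10 in macrophages, of -0.33 (0.024). The coactivator gene Crtc2 was at -0.21 (0.041). Without any 1 of the 4 libraries the count of lower genes was 1, and the Crtc2 call was lost each time (adjusted p 0.0995 to 0.205). Mapkapk2 was lost without Acly-E14 siRNA replicate 2 (0.062) or control siRNA replicate 1 (0.075), and Maf without Acly-E14 siRNA replicate 1 (0.103) or control siRNA replicate 2 (0.101).

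Downstream, the lists of responding genes differed in direction. Of 9 genes known to be induced by IL-10 in macrophages, several of which LPS also induces, 8 were higher and 1 lower (median log2 fold change 0.39). Ddit4, an inhibitor of mTORC1 signalling, had 19.1 CPM in Acly-E14 siRNA libraries and 6.91 CPM in control siRNA libraries on average (log2 fold change 1.47, edgeR adjusted p = 0.0016). The transcriptional repressor genes Nfil3 and Etv3 rose by 0.69 and 0.44 on the log2 scale (edgeR adjusted p = 0.0034 and 0.0036). The count of lower genes was 0 without Acly-E14 siRNA replicate 1 or control siRNA replicate 1. The count of higher genes was 5 without Acly-E14 siRNA replicate 2 or control siRNA replicate 1, and the stromal markers were higher beside them (12 of 13), whose part was not tested. Of 12 tested IL-4 response genes, 5 were higher and 3 lower (median 0.36), while Arg1, Chil3, Retnla and Pdcd1lg2 were not called. Calls at very low level were Ccl17, higher, and Cdh1, lower. Ccl17 had 25 and 23 counts in Acly-E14 siRNA libraries against 2 and 6 in control siRNA libraries. Cdh1 had 6 and 3 counts in Acly-E14 siRNA libraries against 11 and 20 in control siRNA libraries. Klf4 and Mrc1, genes of alternatively activated macrophages, fell by 0.71 and 0.63 on the log2 scale (edgeR adjusted p = 0.0013 and 0.0017), while the transcription factor gene Irf4 rose by 0.61 (0.0064). The higher count was 3 without either Acly-E14 siRNA replicate and 2 without control siRNA replicate 1. Mrc1 is also on the macrophage marker list.

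The interferon response lists held calls in both directions. Of 11 type I interferon response genes, 8 were lower and 1, Rsad2, was higher (median log2 fold change -0.26), with Ifit2 at -0.55 and Ifit1 at -0.48 (edgeR adjusted p = 0.0031 and 0.0034) and Rsad2 at 0.52 (0.0046). The count of lower genes was 3 without Acly-E14 siRNA replicate 2 or control siRNA replicate 1 and 4 without control siRNA replicate 2. Of 9 interferon-gamma response genes, 3 were lower and 1 higher (median -0.16), beside 15.9% and 17.3% of all genes tested. Irgm1 fell by 0.49 (edgeR adjusted p = 0.0027). Gbp2 (-0.22, 0.032) and Irf1 (-0.29, 0.033) lost their calls without most single libraries, Gbp2 without any 1 of the 4 (adjusted p 0.084 to 0.137) and Irf1 without all but Acly-E14 siRNA replicate 1 (0.052 to 0.161), and without Acly-E14 siRNA replicate 2 or either control siRNA replicate the counts were 1 lower and 0 higher. With library totals, and with limma, they were 1 lower and 1 higher. Of the 12 macrophage markers 7 were lower and 2, Cd14 and Fcgr1, higher (median log2 fold change -0.33). Their summed level overlapped between the groups, and their part was not tested.

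**Figure D5:**
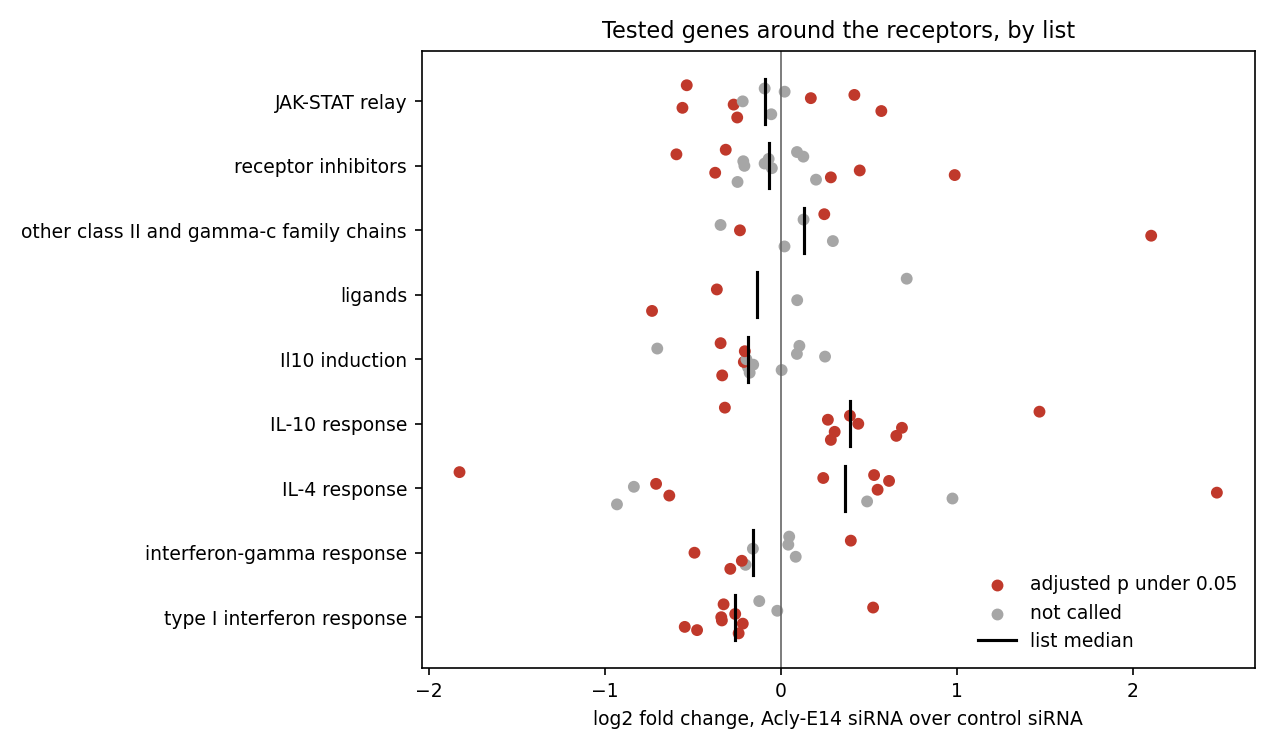
Log2 fold changes, Acly-E14 siRNA over control siRNA, of the tested genes in 9 lists around the receptors. Each point is a gene, red where its edgeR adjusted p was under 0.05, and black lines are list medians, which lie at 0.39 for the IL-10 response and at -0.26 for the type I interferon response.

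Il10ra had the largest absolute change of the 10 genes. The genes most like it were sought by the Euclidean distance between mean-centred log2 CPM values over the 4 libraries. Candidates were 7538 tested genes with a mean of at least 10 CPM. Left out were IDs without a symbol and symbols of predicted (Gm), Rik, pseudogene (-ps) and mitochondrial (mt-) genes. The closest were Gpr141, an orphan receptor gene (distance 0.07), Fabp4, a fatty acid-binding protein gene (0.07), and Ap1s3, an adaptor protein subunit gene (0.12). Fabp4 had 58.4 and 50.9 CPM in Acly-E14 siRNA libraries, against 142 and 126 CPM in control siRNA libraries. Within a distance of 0.2 lay 20 of the candidates, so a profile like that of Il10ra was shared by several genes.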

How the data were processed

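Raw counts, whole numbers for each gene in each library, were deposited by the authors, per the file headers. The authors also deposited FPKM values, of which 1 column was not used because its name gives no replicate number. The submitters' processing notes list HISAT2, StringTie 1.3.0, edgeR and build mm10. Which program counted reads, whether it used strand, and with which annotation, is not given in the sources used here. An Ensembl ID table gave symbols to 34267 of 34745 IDs, and rows without a symbol held 0.153% to 0.187% of counts. Gene positions follow GENCODE M21 (mm10).

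The test was that of edgeR 4.0.16 (R 4.3.3): filterByExpr (minimum count 10), trimmed-mean (TMM) scaling and the two-sided quasi-likelihood F test without covariates, with Benjamini-Hochberg adjustment over 13108 genes and calls at an adjusted p under 0.05. SE values are those implied by the F statistic, and 95% intervals use its degrees of freedom. CPM was computed from the counts. Levels per length divide CPM by the gene length implied by the FPKM values. That length equalled the merged exons of GENCODE M21 for 2 of the 10 genes. Depth was 21023197 to 21837806 counts per library. Replicates differed by more than sampling noise (chi-square per degree of freedom 11.0 and 9.52).

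The genes, lists and tests were chosen with earlier results of these data known. Named in the text are the 10 genes, Acly, the 3 tested genes of smallest p in each of the 9 lists and the 3 genes most like Il10ra. Named outside that rule, after their values were seen or as markers and overlapping genes, are the genes at 0 counts, Kdr, Cdh5, Pecam1, Tek, Lck and Kit. So are Tpsb2, Cpa3, Mcpt8, Lyz2, Cd14, Fcgr1, Gm21970, Gm44876 and Gm20489. From the IL-4 response list, Arg1, Chil3, Retnla, Pdcd1lg2, Ccl17 and Cdh1 are named likewise. Alternatives were another scaling (DESeq2 size factors, or library totals), the DESeq2 1.42.0 Wald test, limma 3.58.1 on log2(FPKM + 1), no filter, the replicate number as a block, an adjusted p under 0.1 and leaving out each library. The merged exon length was added after seeing the data.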

Additional observations from a re-analysis of the deposited data

How the results depend on the processing

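Il10ra and Il4ra were called in the same direction under every alternative run, with log2 fold changes between -1.36 and -1.05 and between 1.08 and 1.20. Ifnar1 kept its direction (0.20 to 0.26 without 1 library) but lost its call without any 1 library, so 1 of the 10 genes was higher each time. The Acly change ranged between -0.40 and -0.30 without 1 library. The sign of Il10rb turned with library totals (0.038) and limma (0.0361), and that of Ifngr1 ranged between -0.0638 and 0.0914 without 1 library (-0.0469 without Acly-E14 siRNA replicate 2, -0.0638 without control siRNA replicate 1); neither gene was called under these settings. Of all calls, 52.0% were higher by trimmed-mean scaling, 65.8% with library totals and 66.0% with limma, where 1313 genes were lower. Without 1 library, 1045 to 1815 genes were higher and 982 to 1400 lower, with fewer samples in the fit. The log2 ratio of Il13ra1 to Il2rg turned to -0.0254 in Acly-E14 siRNA libraries and -0.185 in control siRNA libraries with merged exon lengths, an alternative chosen after seeing the data. With these lengths the log2 ratio of Il10ra to Il10rb moved to -1.25 in Acly-E14 siRNA libraries and -0.0387 in control siRNA libraries. That of Il4ra to Il13ra1 moved to -1.01 and -2.07.

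Without 1 library, the count of higher genes was 1 to 2 for the JAK-STAT relay, 0 to 1 for other receptor chains, Il10 induction and the interferon-gamma response, 5 to 7 for the IL-10 response and 2 to 4 for the IL-4 response. The count of lower genes was then 2 for the JAK-STAT relay, 0 to 1 for other chains, ligands and the IL-10 response, 1 for Il10 induction, 1 to 2 for the interferon-gamma response and 3 to 6 for the type I response. Without the filter on low counts, higher counts were 1 for the JAK-STAT relay and 0 for other chains and the interferon-gamma response, and lower counts were 1 for ligands and for Il10 induction. Limma gave 1 higher and 0 lower for other chains, and lower counts of 2 for the JAK-STAT relay, 1 for Il10 induction, 0 for the IL-10 response, 1 for the interferon-gamma response and 5 for the type I response. Library totals gave 1 higher and 1 lower for Il10 induction, and 0, 1 and 1 lower for other chains, ligands and the interferon-gamma response. DESeq2 gave 2 lower for other chains, and an adjusted p under 0.1 gave 2 lower for other chains and 5 for receptor inhibitors. The cause was not tested.

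With the replicate number as a block, 2514 genes were higher and 2382 lower, and 2 and 1 of the 10 genes (Ifnar1 edgeR adjusted p = 0.019). Same-numbered libraries deviated together with a correlation of 0.19 over 13108 genes, but with 2 numbers this does not establish a pairing. Among the uncalled genes Ifngr1 had the fewest counts and the widest interval (-0.24 to 0.27). Taken over all genes, replicates differed by more than counting noise, and this was not tested for Ifngr1 alone.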

Other observations

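Compared per length, in CPM per kilobase with the length implied by the deposited FPKM values, Il13ra1 (59.3 in Acly-E14 siRNA libraries, 57.2 in control siRNA libraries) and Ifngr2 (54.4 and 53.1) had the highest mean levels of the 10 genes. Ifngr1, the partner of Ifngr2, had the lowest in both groups (4.52 and 4.47). In Acly-E14 siRNA libraries the order between these was Il10, Il2rg, Il10rb, Ifnar2, Ifnar1, Il4ra and Il10ra, and no neighbours in it overlapped between libraries. In control siRNA libraries it was Il2rg and Il10, which overlapped, then Il10rb, Ifnar2, Ifnar1, Il10ra and Il4ra. Il4ra stood above Il10ra in Acly-E14 siRNA libraries (19.3 against 6.04) and below it in control siRNA libraries (8.93 against 14.5).

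With merged exon lengths of GENCODE M21, chosen after seeing the data, Il2rg had the highest mean level (60.3 in Acly-E14 siRNA libraries, 65.1 in control siRNA libraries). It overlapped Il13ra1 (mean 59.3) in Acly-E14 siRNA libraries but not in control siRNA libraries. The exchange of Il4ra and Il10ra was also seen with these lengths, at 29.4 against 14.3 in Acly-E14 siRNA libraries and 13.6 against 34.2 in control siRNA libraries. Levels between genes therefore depend on the length used, while ratios between groups do not.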
